A study of Mus musculus with 6 samples.

Results

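The 38 genes described here are the members of the mouse HoxA, HoxB, HoxC and HoxD clusters listed in the deposited expression table, chosen by gene symbol (Hox, a cluster letter and a number) from 18853 genes in all. They were measured by RNA sequencing in cultured bone marrow stromal cells (BMSCs), plastic-adherent cells of the marrow that include progenitors of bone and fat. The 3 wild-type (WT) libraries are numbered 10, 11 and 12. The 3 HRP2-KO libraries, numbered 6, 7 and 44, come from mice lacking HRP2, also called HDGFR2 and listed as Hdgfl2, a chromatin protein with a PWWP domain. The labels used here give no age, strain, knockout allele, bone of origin or batch. They do not state that each sample had its own animal or culture, so the p-values reflect only how far the samples differ from each other, which may be technical. Since no batch is named, a batch and the genotype cannot be told apart. Wherever 3 values are listed for a genotype, they follow the order 10, 11, 12 for WT and 6, 7, 44 for HRP2-KO.

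Hox genes encode homeodomain transcription factors that mark position along the body axis and along the limb. Within each cluster the genes stand in the order of their paralog number, and low numbers are expressed toward the head while high numbers are expressed toward the tail and, in limbs, toward the digits. Cells of adult connective tissue and bone keep part of the Hox pattern of the place they came from. Upkeep of Hox expression depends on MLL and menin, which work with the PWWP protein LEDGF (Psip1), a relative of Hdgfl2, and silencing depends on Polycomb complexes.

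The libraries held 20184499 to 20680773 estimated counts, of which Hox genes took 0.0183% to 0.0400%. Levels of 1 gene are compared in CPM, counts scaled to library size with TMM factors. Where no count was found, the level could still be as high as 3 counts, which is 0.139 to 0.16 CPM depending on the library, for counting error alone. Hdgfl2, the targeted gene, was at 51.4, 56.2 and 58.2 CPM in WT and at 6.59, 5.56 and 11.8 CPM in HRP2-KO, so the groups did not overlap. Its log2 fold change of -2.79 (standard error 0.32) missed the threshold of 0.05 over all genes (edgeR, quasi-likelihood F-test, adjusted p = 0.0711). All 16 stromal markers and all 16 macrophage markers of the lists used had counts in every library. The summed macrophage level was 21100 to 49800 TPM (which is scaled to transcript length) in WT, and in HRP2-KO it was 2610, 25600 and 4160 TPM. By this sum HRP2-KO replicate 7 lay inside the WT range of macrophage RNA and the other HRP2-KO libraries below it. Single markers of replicate 7 lay on both sides of WT. Mrc1 was at 93.61 TPM there, against 199.91 to 535.4 TPM in WT. Adgre1 was at 651.55 TPM, against 143.53 to 378.32 TPM in WT. The stromal markers summed to 3800, 7140 and 6760 TPM in WT and to 12100, 11800 and 7710 TPM in HRP2-KO. These sums did not overlap, and in each WT library the macrophage sum was above the stromal sum. Col1a1 and Col1a2 had the highest TPM of the stromal markers in each HRP2-KO library. Col1a1 was at 556.54, 1297.5 and 694.93 TPM in WT and at 5570.57, 3893.92 and 3234.05 TPM in HRP2-KO. Col1a2 was at 650.44, 1974.79 and 1190.44 TPM in WT and at 4755.46, 3199.48 and 2648.63 TPM in HRP2-KO. In fitted level 10 of the 16 stromal markers were higher and 6 lower in HRP2-KO, so the sum does not describe each marker. The part of these cell type differences in the Hox levels was not tested. In bulk RNA, fewer cells of a type and less RNA per cell cannot be told apart.

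In TPM, which allows levels of different genes to be compared, the libraries labelled BMSC held mainly HoxC and HoxA transcripts. Posterior paralog groups (9 to 13) held more of the Hox TPM than groups 4 to 8 in every library but WT replicate 12, where Hoxc6 was the highest gene at 116.5 TPM. The highest mean over the 6 libraries belonged to Hoxc10, a gene of the lumbar and hindlimb region, at 67.1 TPM. It was followed by Hoxc6, a thoracic gene, at 41.4 TPM, Hoxa10, which patterns the lumbar spine and upper leg, at 30.8 TPM, Hoxc13, known for hair and nail formation, at 24.3 TPM and Hoxc9 at 16.9 TPM. The HoxC cluster (GRCm38.p6 chromosome 15, 102921131 to 103036856) held 42.7% to 76.9% of the Hox TPM of a library. The HoxA cluster (chromosome 6) held 15.9% to 36.9%. The HoxD cluster (chromosome 2, 74668225 to 74748271) held 1.33% to 20.6%, and the HoxB cluster (chromosome 11, 96194316 to 96368254) held 1.19% to 9.86%. These clusters were represented by 9, 11, 8 and 10 genes.

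By paralog number, groups 9 to 13 held 47.3% to 72.9% of the Hox TPM, groups 4 to 8 held 24.5% to 51.2% and groups 1 to 3 held 1.58% to 4.18%. Group 10 alone held 30.5% to 37.8% in the 6 libraries, a narrow range beside that of group 11, which held 1.19% to 14.8%. At least 1 TPM was reached by 21 to 29 of the 38 genes in a library. Hoxb1, Hoxd12 and Hoxb13 were nearly silent. Hoxb1, a hindbrain gene, had 1 count in HRP2-KO replicate 44 and no count in the other libraries. Hoxd12, a distal limb gene, had 1 count in WT replicate 11 and no count elsewhere, and Hoxb13, a tail and prostate gene, had at most 3 counts.

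**Figure D1:**
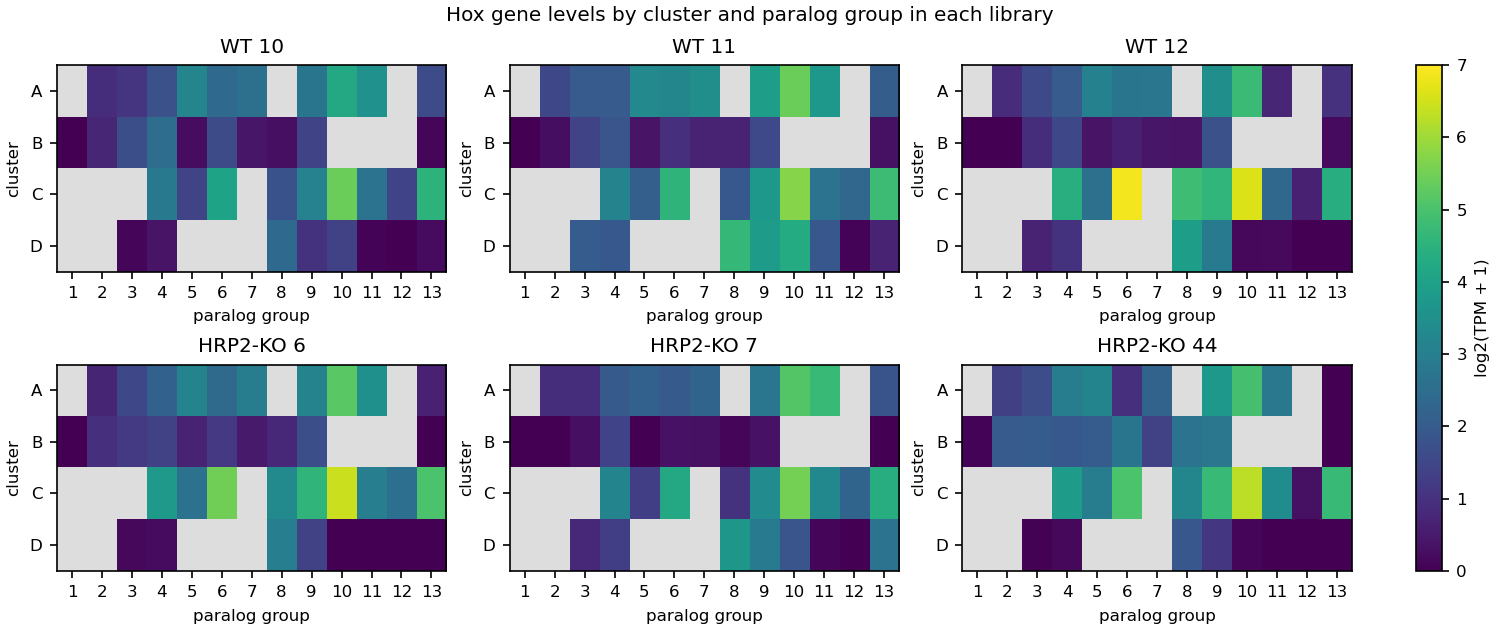
Level of 37 Hox genes as log2(TPM + 1) (colour) by cluster (rows) and paralog group (columns), 1 panel per library, with grey where no gene is shown. Paralog group 10 of HoxA and HoxC is bright in all 6 panels, while the HoxD row is brightest in WT replicate 11 and the HoxB row in HRP2-KO replicate 44.

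The HoxD and HoxB clusters, which had the lowest levels, had the widest ranges between libraries, 16.1-fold and 11-fold in summed TPM against 3.02-fold for HoxC and 1.82-fold for HoxA. To show the DNA at which they are transcribed, 250 bases before a RefSeq start (GRCm38.p6, plus strand) are given for 3 HoxD genes that were highest in WT replicate 11 and for Hoxb8, the tested HoxB gene with the highest ratio between libraries (71.8-fold in CPM). Capitals mark CG dinucleotides, the sequence feature of CpG islands. The windows are chr2:74704365-74704614 for Hoxd8, chr2:74697513-74697762 for Hoxd9, chr2:74691641-74691890 for Hoxd10 and chr11:96281655-96281904 for Hoxb8.
Hoxd8: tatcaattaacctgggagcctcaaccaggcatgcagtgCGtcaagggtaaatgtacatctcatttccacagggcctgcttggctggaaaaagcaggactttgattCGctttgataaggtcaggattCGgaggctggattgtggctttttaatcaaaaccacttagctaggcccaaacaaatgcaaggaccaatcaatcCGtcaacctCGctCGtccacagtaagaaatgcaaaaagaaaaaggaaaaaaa
Hoxd9: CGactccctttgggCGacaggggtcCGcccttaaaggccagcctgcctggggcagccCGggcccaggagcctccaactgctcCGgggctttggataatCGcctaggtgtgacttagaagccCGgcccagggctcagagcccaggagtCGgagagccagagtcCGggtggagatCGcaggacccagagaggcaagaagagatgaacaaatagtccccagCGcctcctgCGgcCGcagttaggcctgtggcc
Hoxd10: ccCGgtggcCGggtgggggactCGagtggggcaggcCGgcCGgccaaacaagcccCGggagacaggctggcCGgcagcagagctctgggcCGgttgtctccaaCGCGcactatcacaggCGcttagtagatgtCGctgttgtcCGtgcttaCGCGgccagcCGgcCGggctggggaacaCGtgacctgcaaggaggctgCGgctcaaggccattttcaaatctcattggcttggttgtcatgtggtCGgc
Hoxb8: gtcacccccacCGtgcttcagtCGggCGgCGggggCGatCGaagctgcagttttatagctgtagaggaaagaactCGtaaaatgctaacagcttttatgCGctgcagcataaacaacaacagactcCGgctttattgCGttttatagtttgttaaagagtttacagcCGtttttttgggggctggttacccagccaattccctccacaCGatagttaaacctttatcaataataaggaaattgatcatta

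The 3 HoxD windows do not share one base composition, with 6 CG dinucleotides in Hoxd8, 13 in Hoxd9 and 20 in Hoxd10, against 12 in Hoxb8. Over the 23 RefSeq windows found for 21 Hox members the median was 12 CG dinucleotides, and over all 32851 windows it was 6. The TATA box letters TATAAA, searched on both strands, occur in the Hoxb8 window, on the minus strand, and not in the windows of Hoxd8, Hoxd9 and Hoxd10. They occur in 4 of 23 Hox windows, among them those of Hoxd4 and Hoxd13, and in 12.4% of all windows. The letters TGATNNAT, the form bound by PBX-HOX pairs, likewise occur in the Hoxb8 window and in none of these 3 HoxD windows. Over all Hox windows they occur in 4 of 23, among them that of Hoxd11, and in 7.68% of all windows. Such matches describe the letters only.

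The tested HoxD genes were highest in WT replicate 11. Summed HoxD TPM was 7.46, 65.9 and 22.7 in WT and 8.82, 28.6 and 4.09 in HRP2-KO. Each genotype thus held a high library and a low one, and the groups overlapped. There were 5 HoxD genes with enough counts to be tested, and HRP2-KO replicate 7 was among the 3 highest for all 5. Hoxd8, a trunk gene, was at 4.14, 20.9 and 12.8 CPM in WT and at 6.73, 12.5 and 3.47 CPM in HRP2-KO. Hoxd9, which acts in the upper limb, was at 1.04, 11.9 and 6.07 CPM in WT and at 1.51, 6.79 and 1.49 CPM in HRP2-KO. For both genes WT replicates 11 and 12 and HRP2-KO replicate 7 were the 3 highest libraries.

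Hoxd10, a limb and lumbar gene, was at 1.38, 15.5 and 0.0942 CPM in WT and at 0, 2.46 and 0.0992 CPM in HRP2-KO. Unlike Hoxd8 and Hoxd9, it was almost silent in WT replicate 12, with 2 counts, too few for a precise level. The fit gave a log2 fold change of -2.73 (standard error 2, adjusted p = 0.431, edgeR), and without WT replicate 11 it was 0.20. Hoxd3, a neck gene, was at 0.0987, 3.83 and 0.801 CPM in WT and at 0.146, 1.12 and 0.0496 CPM in HRP2-KO. For Hoxd3 the log2 fold change was -1.85 (standard error 1.43, adjusted p = 0.453, edgeR), and WT replicate 11 and HRP2-KO replicate 7 were again the highest. Annotated spans of Hoxd3 and Hoxd4 overlap, as do those of Hoxd10 and Hoxd11, so reads between them are uncertain.

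The most distal HoxD genes had counts mainly in single libraries and were too low for testing. Hoxd11, which with Hoxa11 shapes the forearm and lower leg, had 100 counts in WT replicate 11 and at most 5 in any other library. Hoxd13, which shapes the digits, had 132 counts in HRP2-KO replicate 7, 14 in WT replicate 11, 4 in WT replicate 10 and none in the other 3 libraries. The highest library thus differed between these genes, though both were at 0 in HRP2-KO replicates 6 and 44.

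Of the 5 tested HoxB genes, 4 were highest in HRP2-KO replicate 44. Summed HoxB TPM was 12, 9.12 and 6.66 in WT and 9.05, 2.77 and 30.4 in HRP2-KO. HRP2-KO replicates 44 and 7 were the highest and the lowest of the 6, with the WT libraries between them. Hoxb8, a thoracic gene also known for holding myeloid progenitors in cycle, was at 0.247, 0.554 and 0.330 CPM in WT and at 0.878, 0.107 and 7.69 CPM in HRP2-KO. Its log2 fold change was 2.92 (standard error 1.36, adjusted p = 0.264, edgeR), and without HRP2-KO replicate 44 it was 0.39. Hoxb6 was at 1.48, 0.646 and 0.377 CPM in WT and at 0.927, 0.214 and 5.01 CPM in HRP2-KO, with a log2 fold change of 1.29 (standard error 1.11, adjusted p = 0.492, edgeR) that became -0.52 without HRP2-KO replicate 44.

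Hoxb9 was at 2.17, 2.22 and 2.78 CPM in WT and at 2.83, 0.374 and 9.82 CPM in HRP2-KO, so the WT libraries lay close together and the HRP2-KO libraries on both sides of them. Hoxb5, too low for testing with all libraries, had 3, 5 and 5 counts in WT and 11, 0 and 73 in HRP2-KO. Hoxb4, known for expanding blood stem cells, was at 5.67, 2.77 and 2.12 CPM in WT and at 1.95, 2.19 and 4.46 CPM in HRP2-KO. It was the 1 tested HoxB gene whose highest library was WT replicate 10 and not HRP2-KO replicate 44.

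Cd34 (chosen after its values were seen), a marker of blood progenitors and of some stromal and vessel cells, reached 69.5 CPM in HRP2-KO replicate 44, while the other libraries ranged from 1.55 to 22.3 CPM. Of the 8 blood progenitor markers in the table, Kit, Flt3, Myb and Gfi1 had at most 4 counts each in any HRP2-KO library, while Kit had 180, 40 and 9 counts in WT. Gata2 was at 7.1, 27.6 and 58 CPM in WT and at 14, 18.1 and 15.5 CPM in HRP2-KO, and Mecom was at 6.07, 8.45 and 4 CPM in WT and at 10.2, 18.1 and 7.34 CPM in HRP2-KO. All 8 markers together summed to 24.2, 50.4 and 58.6 TPM in WT and to 29.5, 21.2 and 61.9 TPM in HRP2-KO, with overlapping groups. Cd34 gave 43.94 TPM of the sum in HRP2-KO replicate 44, and Gata2 gave 40.14 TPM of that in WT replicate 12. The sum thus does not describe each marker. The granulocyte markers summed to 10.3 to 15.4 TPM in WT and to 1.75, 33.7 and 2.68 TPM in HRP2-KO. S100a8 alone was at 30.22 TPM in HRP2-KO replicate 7, while S100a9 had 0 counts in each HRP2-KO library. Of the 4 granulocyte markers tested, 1 was higher and 3 lower in fitted level in HRP2-KO. The part of these cells in the HoxB levels was not tested.

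**Figure D2:**
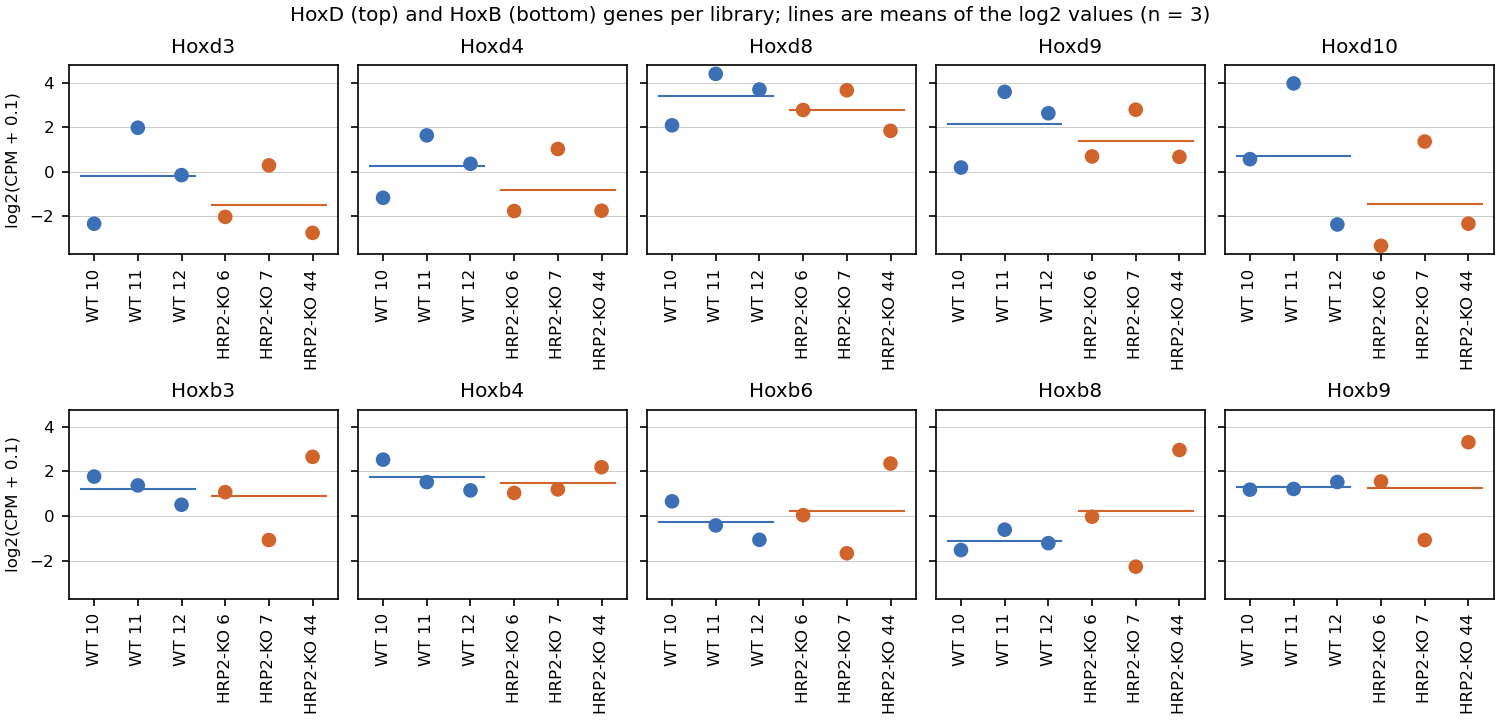
Level of 5 HoxD genes (top) and the 5 tested HoxB genes (bottom) as log2(CPM + 0.1) in each library, WT in blue and HRP2-KO in orange, with a line at the mean of each genotype. In each HoxD panel WT replicate 11 is the highest point, and in 4 of 5 HoxB panels HRP2-KO replicate 44 is the highest and HRP2-KO replicate 7 the lowest, with Hoxb4 the exception.

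HoxC genes were highest in WT replicate 12 or in HRP2-KO replicates 6 and 44. Summed HoxC TPM was 104, 137 and 316 in WT and 223, 115 and 200 in HRP2-KO, and the groups overlapped. Hoxc6 was at 14.7, 23.5 and 104 CPM in WT and at 42.5, 20.9 and 37.1 CPM in HRP2-KO. Its log2 fold change of -0.50 (standard error 0.74, adjusted p = 0.697, edgeR) became 0.82 without WT replicate 12, the library that decided its sign. Hoxc8, which patterns the thoracic skeleton, was at 2.61, 2.68 and 27.9 CPM in WT and at 9.66, 1.18 and 11.7 CPM in HRP2-KO, a 23.7-fold range. The lowest libraries for Hoxc8 were WT replicates 10 and 11 and HRP2-KO replicate 7.

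Hoxc10, Hoxc13 and Hoxc9 had narrower ranges, of 2.49-fold, 1.85-fold and 4.49-fold. Hoxc10 was at 37.6, 41.6 and 83.5 CPM in WT and at 77.5, 44.4 and 93.6 CPM in HRP2-KO. The Hoxc10 difference on the log2 scale was 0.41 (standard error 0.41, adjusted p = 0.559, edgeR), with a 95% interval of -0.58 to 1.39. Hoxc13 was at 25.6, 27.7 and 21.3 CPM in WT and at 35.7, 24.3 and 39.5 CPM in HRP2-KO, so HRP2-KO replicate 7 lay inside the WT range and the other HRP2-KO libraries above it. For Hoxc13 the log2 fold change was 0.42 (standard error 0.24, adjusted p = 0.329, edgeR). Hoxc9 was at 6.17, 8.86 and 17.7 CPM in WT and at 18.2, 8.24 and 27.7 CPM in HRP2-KO, with a log2 fold change of 0.73 (standard error 0.56, adjusted p = 0.449, edgeR).

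Hoxc11, a hindlimb gene next to Hoxc10 (chromosome 15, 102954526 to 102956701), was the Hox gene with the smallest p. It was at 2.22, 1.99 and 1.60 CPM in WT (1.94 ± 0.313 CPM, SD, n = 3) and at 2.93, 3.90 and 5.35 CPM in HRP2-KO (4.06 ± 1.22 CPM, SD, n = 3). All 3 HRP2-KO libraries lay above all 3 WT libraries. The log2 fold change was 1.07 (standard error 0.36, 95% interval 0.21 to 1.93), and over all genes it did not pass in edgeR (adjusted p = 0.178). Its adjusted p was 0.0738 in DESeq2, the smallest of the 14 alternatives tried, and 0.416 at most.

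HoxA sums had the narrowest range of the 4 clusters. Summed HoxA TPM was 59.9, 109 and 65.2 in WT and 82.3, 85.9 and 73.4 in HRP2-KO. Hoxa10 was at 18.6, 40.0 and 26.8 CPM in WT and at 37.9, 38.6 and 40.9 CPM in HRP2-KO, with a log2 fold change of 0.46 (standard error 0.29, adjusted p = 0.372, edgeR). In CPM the HRP2-KO libraries of Hoxa10 lay close together, at the upper end of the WT range. TPM ranked them differently, at 17.62, 41.83 and 26.45 TPM in WT and at 35.94, 33.73 and 29.35 TPM in HRP2-KO. HRP2-KO replicate 44 was the highest library for Hoxa10 in CPM and the lowest HRP2-KO library in TPM. The order of libraries in the cluster sums therefore holds for TPM and may differ in CPM. Hoxa9, a gene of the posterior trunk that is also active in blood progenitors, was at 8.49, 19.1 and 14.6 CPM in WT and at 11.5, 9.15 and 24.5 CPM in HRP2-KO.

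Single HoxA genes stood apart in single libraries. Hoxa11, which shapes the forearm and lower leg, was at 11.4, 11.8 and 0.706 CPM in WT and at 11.3, 30 and 8.48 CPM in HRP2-KO. WT replicate 12 was 42.4-fold below HRP2-KO replicate 7, and the log2 fold change was 1.05 (standard error 0.97, adjusted p = 0.524, edgeR). Hoxa13, a digit gene, was at 1.28, 1.71 and 0.565 CPM in WT and at 0.342, 1.66 and 0 CPM in HRP2-KO, and HRP2-KO replicate 7 was the HRP2-KO library with the highest level, as for Hoxd13. Hoxa6, a trunk gene, was at 4.54, 7.90 and 5.60 CPM in WT and at 4.64, 3.37 and 1.29 CPM in HRP2-KO, with a log2 fold change of -0.96 (standard error 0.51, adjusted p = 0.309, edgeR).

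Among the HoxA genes of lower paralog number, the HRP2-KO libraries were all above the WT libraries for Hoxa4. Hoxa4, a neck gene, was at 1.68, 1.94 and 2.02 CPM in WT and at 2.49, 2.3 and 6.30 CPM in HRP2-KO, with a log2 fold change of 0.97 (standard error 0.48, adjusted p = 0.282, edgeR). The groups did not overlap, and the gene did not pass the threshold. The annotated span of Hoxa3 overlaps Hoxa4, Hoxa5 and Hoxa6, and long RNAs lie over several HoxA genes, so reads there are uncertain.

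**Figure D3:**
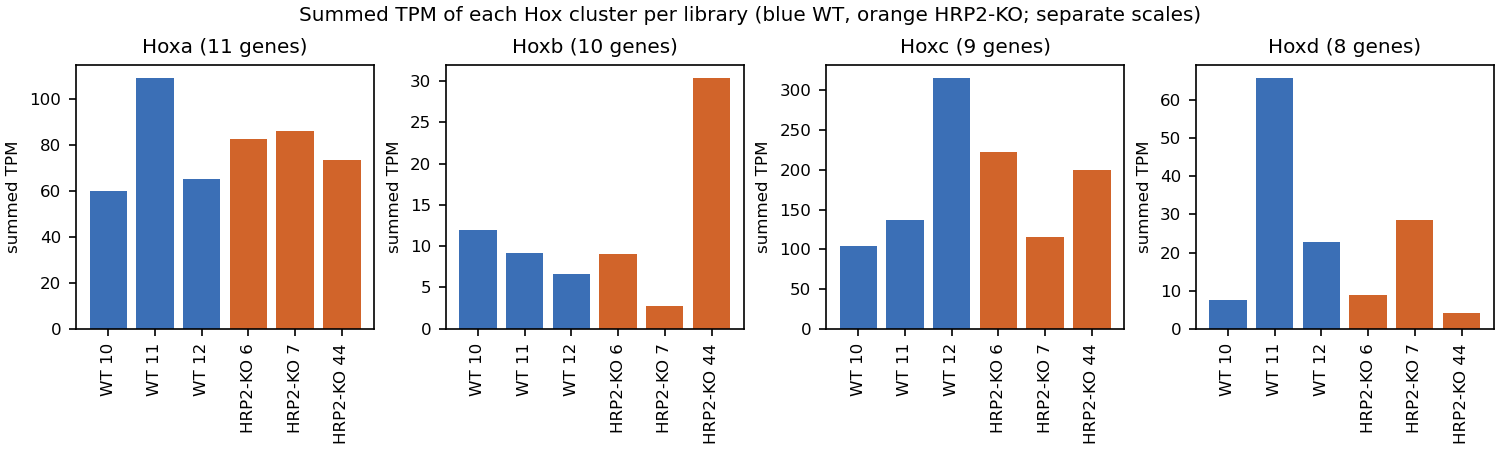
Summed TPM of the genes of each Hox cluster (vertical axes, a scale of its own for each cluster) in the 6 libraries, WT in blue and HRP2-KO in orange. HoxA sums lie between 59.9 and 109 TPM, while HoxD sums run from 4.09 to 65.9 TPM and HoxB sums from 2.77 to 30.4 TPM. The highest and lowest HoxB sums are both HRP2-KO libraries, with the WT libraries between them.

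Between genotypes no Hox gene passed the threshold. Of the 38 members 30 had enough counts to be tested (at least 10 in enough libraries), and the 8 others were Hoxb1, Hoxb2, Hoxb5, Hoxb7, Hoxb13, Hoxd11, Hoxd12 and Hoxd13. At an adjusted p below 0.05 edgeR called 0 of 30 Hox genes, against 1 of 13696 tested genes (0.0073%), and DESeq2 also called 0 of 30 Hox genes, against 11.5% of all genes (6.56% higher and 4.97% lower). The other alternatives that called 0 Hox genes called at most 42 genes each. The share of all genes was again 0.0073% with RLE or upper-quartile factors, 0.00541% with no filter, 0.00774% with a filter of 1 CPM in 3 samples, 0.27% with limma voom, 0.332% on log2(TPM + 1) and 0.213% on log2(TPM + 0.1). It was 0.00718%, 0.00719% and 0.00716% without WT replicate 10, 11 or 12, 0.00716% without HRP2-KO replicate 6 and 0% without HRP2-KO replicate 44. At an unadjusted p below 0.05 edgeR had 1 of 30 Hox genes, Hoxc11, which is 3.33% against 21.8% of all tested genes (12.7% higher and 9.1% lower). In 3 of 30 Hox genes, among them Hoxa4 and Hoxc11, the HRP2-KO libraries all lay above the WT libraries, which is 10% against 17% of all genes, and in 0 of 30 they all lay below, against 14% of all genes. These shares describe the 30 genes that could be tested and were not tested against the other genes.

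Of the tested genes 17 of 30 had a higher fitted level in HRP2-KO, against 51% of all genes, and 13 a lower one, with a median log2 fold change of 0.11 against 0.02 over all tested genes. The median size of the log2 fold change, whatever its sign, was 0.70 against 0.44. That size was above 1 in 6 of 30 Hox genes (20%), against 19.7% of all genes. By cluster, 6 of 11 HoxA genes were higher (median 0.10), 4 of 5 HoxB genes (median 0.86), 7 of 9 HoxC genes (median 0.42) and 0 of 5 HoxD genes (median -0.97). RLE and upper-quartile factors gave the same counts, while on log2(TPM + 1) with limma 4 of 10 HoxA genes (median -0.17) and 2 of 4 HoxB genes (median -0.07) were higher. On log2(TPM + 0.1) the HoxA median was -0.22 and the HoxB median -0.39, and with limma voom 2 of 5 HoxB genes were higher (median -0.06). In these 3 fits 7 of 9 HoxC genes and 0 HoxD genes were higher. The HoxD and HoxB directions rested on single libraries. Without WT replicate 11, 2 of 5 HoxD genes were higher (median -0.05). Without HRP2-KO replicate 44, 1 of 5 HoxB genes was higher (median -0.56).

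Leaving out HRP2-KO replicate 7, whose summed macrophage level lay in the WT range, changed the number of calls. Then 2 of 32 tested Hox genes passed higher and 0 lower in edgeR (6.25%, against 24.1% of all 13983 genes, 12.1% higher and 12% lower). They were Hoxb8, with a log2 fold change of 3.54 (standard error 0.94, adjusted p = 0.0434), and Hoxb5, with a log2 fold change of 3.36 (standard error 0.88, adjusted p = 0.0418). Both rest on HRP2-KO replicates 6 and 44 alone, which differed 8.75-fold in Hoxb8. At an unadjusted p below 0.05 there were 10 of 32 Hox genes, against 42% of all genes. The part of macrophage RNA in these counts was not tested.

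**Figure D4:**
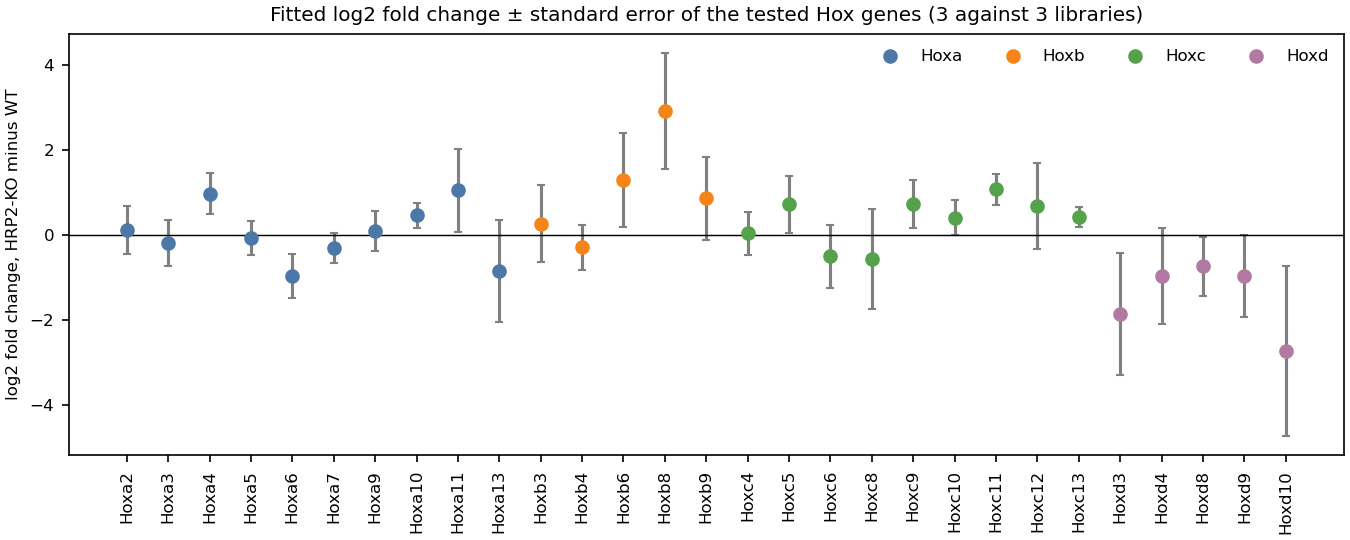
Fitted log2 fold change, HRP2-KO minus WT, with its standard error (vertical axis) for 29 of the 30 tested Hox genes (horizontal axis, coloured by cluster), 3 libraries against 3. HoxA and HoxC genes lie mostly within 1 unit of 0, while the 5 HoxD genes lie below 0 with long error bars and 4 of 5 HoxB genes above it in this edgeR fit, against 2 of 5 with limma voom.

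The SD of log2 CPM within genotypes had a median of 0.92 over the 30 tested Hox genes, against 0.38 over all tested genes. It was 0.41 over the 10013 genes between the lowest and highest Hox mean level, a set not matched to the Hox genes within that range. The SD was above the upper quartile of all genes (0.64) in 22 of 30 Hox genes (73.3%). By cluster the median SD was 0.65 for HoxA, 0.83 for HoxC, 1.51 for HoxD and 1.56 for HoxB. Hoxd10 had the widest spread, with an SD of 2.85, percentile 99.7 of all tested genes. Hoxc13, with an SD of 0.29 (percentile 35.7), was among those with the narrowest. This spread is given as a description, with no test against other genes.

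Other genes that mark limbs and body regions were read beside the Hox genes, since they are set down in the same tissues. Of 33 genes of the list 31 were in the table and 22 were tested. In fitted level 18 were higher and 4 lower in HRP2-KO, with a median log2 fold change of 0.52. Over all tested genes 51% were higher, with a median of 0.02. None of the 22 passed over all genes, and 2 higher and 0 lower had an unadjusted p below 0.05 in edgeR (9.09%, against 21.8% of all genes). They were Tbx18, with a log2 fold change of 1.13 (standard error 0.29, adjusted p = 0.124, edgeR), and Msx2, with a log2 fold change of 1.20 (standard error 0.34, adjusted p = 0.140, edgeR). Tbx15, which shapes the shoulder blade, was at 75.9, 93.7 and 125 CPM in WT and at 159, 161 and 121 CPM in HRP2-KO. Alx4, a limb and skull gene, was at 0.740, 3.09 and 1.70 CPM in WT and at 0.488, 1.12 and 0.942 CPM in HRP2-KO.

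The regulators of limb identity differed between libraries of the same genotype. The following 4 were chosen after their values were seen. Tbx5, the forelimb factor, had 444 counts in WT replicate 12 (20.9 CPM) and at most 7 in any other library. That library also had the highest Hoxc6 and Hoxc8 and the lowest Hoxa11. Tbx4, a hindlimb factor, was at 4.74, 3.83 and 3.48 CPM in WT and at 0.293, 15.7 and 0.198 CPM in HRP2-KO. HRP2-KO replicate 7, the highest library for Tbx4, was also the highest for Hoxa11 and Hoxd13. Pitx1, which acts upstream of Tbx4 in the hindlimb, was at 5.33, 26.4 and 26.1 CPM in WT and at 24.2, 35.5 and 47.3 CPM in HRP2-KO, and so was present in every library. Barx1, a factor of joints and stomach, was at 16.3 CPM in WT replicate 11 and 35.1 CPM in HRP2-KO replicate 7 and at most at 1.90 CPM in the other libraries. The labels do not give the bones from which the marrow was taken, and any part of that in these differences was not tested.

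**Figure D5:**
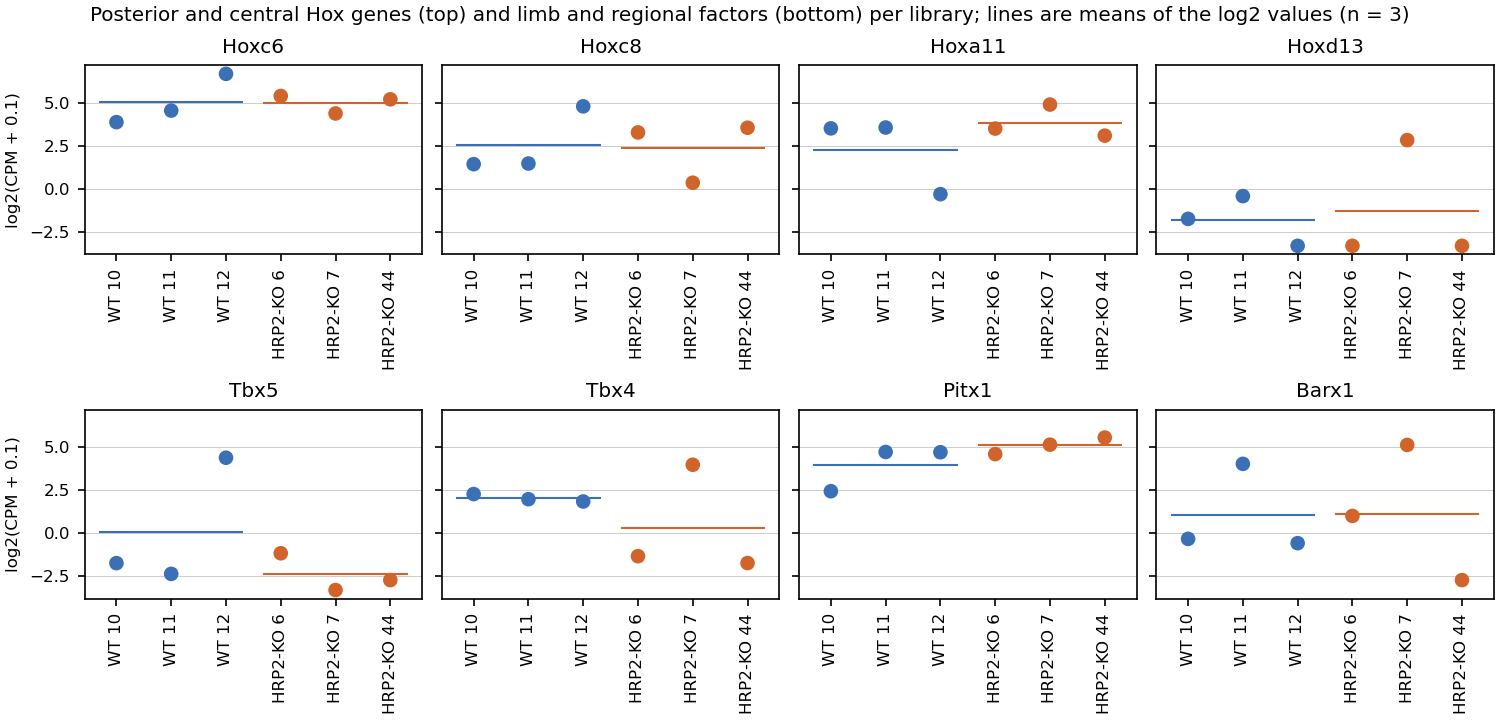
Level as log2(CPM + 0.1) of 4 Hox genes (top) and 4 limb and regional factors (bottom) in each library, WT in blue and HRP2-KO in orange, with a line at the mean of each genotype. Tbx5 stands out in WT replicate 12, where Hoxc8 is highest and Hoxa11 lowest, and Tbx4 in HRP2-KO replicate 7, where Hoxd13 is highest.

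HOX proteins bind DNA together with the PBX, MEIS and PREP (Pknox) cofactors, and all 9 cofactor genes had counts in every library. None of the 9 had an unadjusted p below 0.05 in edgeR, against 21.8% of all tested genes. In fitted level 6 were higher and 3 lower in HRP2-KO, against 51% of all genes higher. The median log2 fold change was 0.09, against 0.02 over all tested genes. Meis1, also a gene of blood stem cells, was at 3.01, 5.26 and 9.70 CPM in WT and at 12.1, 3.90 and 11.4 CPM in HRP2-KO. Its 3 highest libraries, HRP2-KO replicates 6 and 44 and WT replicate 12, were also those of Hoxc6 and Hoxc8. Meis3 averaged 26.6 ± 1.5 CPM over WT and 29.5 ± 1.96 CPM over HRP2-KO libraries (SD, n = 3 each), Pbx2 at 38.7 ± 5.68 and 34.2 ± 8.29 CPM, and Pbx4 at 0.708 ± 0.267 and 0.999 ± 0.416 CPM.

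Among 20 genes of the MLL, menin and LEDGF group and their relatives, Hdgfl2 included, 2 higher and 1 lower had an unadjusted p below 0.05 (15%, against 21.8% of all genes) and none passed over all genes. In fitted level 10 were higher and 10 lower in HRP2-KO, with a median log2 fold change of -0.1. Men1, which encodes menin, was at 38.3, 38.7 and 38.4 CPM in WT and at 48.2, 50 and 58.2 CPM in HRP2-KO. Its log2 fold change was 0.44 (standard error 0.15, adjusted p = 0.187, edgeR). All HRP2-KO libraries lay above all WT libraries, which holds for 17% of all tested genes. Hdgf, the founding member of the Hdgfl2 family, averaged 282 ± 12.7 CPM over WT and 472 ± 152 CPM over HRP2-KO libraries (SD, n = 3 each), and Mllt1 at 58.8 ± 10.3 and 86.9 ± 21.1 CPM. Psip1, which encodes LEDGF and lies outside the 4 smallest p-values, was at 31.2, 48.0 and 43.2 CPM in WT and at 64.6, 45.6 and 53.2 CPM in HRP2-KO, with overlapping groups. Kmt2a, which encodes MLL and also lies outside them, was at 105, 132 and 138 CPM in WT. In HRP2-KO Kmt2a was at 93.9, 105 and 52.5 CPM, with a log2 fold change of -0.58 (standard error 0.29, adjusted p = 0.291, edgeR).

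Of 23 Polycomb genes, 5 higher and 3 lower had an unadjusted p below 0.05 (34.8%, against 21.8% of all genes), and none passed over all genes. Ezh2, the methyltransferase of dividing cells, was at 5.03, 9.65 and 7.30 CPM in WT and at 36.9, 16.3 and 46.0 CPM in HRP2-KO. For Ezh2 the log2 fold change was 2.17 (standard error 0.45, adjusted p = 0.107, edgeR). Ezh1, the related enzyme of resting cells, was at 53.5, 50 and 38.0 CPM in WT and at 17.7, 35.2 and 16.5 CPM in HRP2-KO, with a log2 fold change of -1.03 (standard error 0.34, adjusted p = 0.178, edgeR). Cbx7, a chromodomain subunit of Polycomb complex PRC1, averaged 14.8 ± 3 CPM over WT and 4.86 ± 3.02 CPM over HRP2-KO libraries (SD, n = 3 each), and Phf1 at 47.4 ± 1.77 and 32.2 ± 4.01 CPM. For each of these 4 genes the groups did not overlap, which holds for 31% of all tested genes.

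Of 22 neighbours and non-coding genes listed, 7 were in the table and 6 were tested. Calcoco1, near the HoxC cluster, averaged 82.1 ± 3.03 CPM over WT and 55.8 ± 9.50 CPM over HRP2-KO libraries (SD, n = 3 each), with a log2 fold change of -0.56 (standard error 0.18, adjusted p = 0.170, edgeR). Skap2, beyond the HoxA cluster, averaged 71.7 ± 15.5 CPM over WT and 51.7 ± 11.4 CPM over HRP2-KO libraries, and its neighbour Snx10 at 49.5 ± 13 and 41.3 ± 8.24 CPM (SD, n = 3 each). Mtx2, next to the HoxD cluster, was at 32.4, 33.5 and 39.4 CPM in WT and at 40.1, 37.0 and 55.6 CPM in HRP2-KO. WT replicate 11, where HoxD genes were highest, was thus not high in Mtx2. Lnpk, on the other side of HoxD and outside the 4 smallest p-values, was at 22.4, 31.2 and 28.6 CPM in WT. In HRP2-KO it was at 30.6, 21.9 and 24.6 CPM. WT replicate 11 was the highest library for Lnpk, close to HRP2-KO replicate 6, within a 1.42-fold range.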

How the data were processed

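The authors deposited estimated counts per gene, not normalized and not all whole, and TPM values scaled to transcript length, per the file headers. The submitters' processing notes name BWA and GRCm38.p6, with the counting program, annotation and strand use not given in the sources used here. Another 36 columns of FPKM, normalized counts and averages were not used. Counts were rounded, filtered with filterByExpr (minimum count 10, minimum total 15) to 13696 of 18853 genes, scaled with TMM and tested with edgeR 4.0.16 (R 4.3.3, quasi-likelihood F-test, two-sided, genotype only) with Benjamini-Hochberg adjustment over all tested genes at 0.05. A standard error is the log2 fold change divided by the square root of F. The test was checked on simulated counts that gave all genes the same dispersion. That check does not cover the wider spread of the Hox genes. Alternatives used DESeq2 1.42.0 and limma 3.58.1. No 2 libraries of a group agreed within counting noise (chi-square per degree of freedom at least 49.9). Positions and promoters are RefSeq's on GRCm38.p6, the build in the notes. The members and lists were chosen with earlier results of these data known. Named Hox genes are the 12 with the smallest p and the 5 highest in TPM, with other members by value (1 Hox gene is not reported here), and 4 genes with the smallest p of each other list.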

Additional observations from a re-analysis of the deposited data

How the results depend on the processing

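No paired analysis was possible because the WT and HRP2-KO libraries share no replicate number. The count of all genes past the threshold moved from 1 in edgeR with all libraries to 1579 in DESeq2, 37 in limma voom, 42 on log2(TPM + 1) and 27 on log2(TPM + 0.1), and from 0 to 3370 when 1 library was left out (0 without HRP2-KO replicate 44, where 2388 genes had an unadjusted p below 0.05 in edgeR, and 3370 without HRP2-KO replicate 7). The count of Hox genes past it was 2 without HRP2-KO replicate 7 and 0 under the other 13 of 14 alternatives. The median log2 fold change of the tested Hox genes, 0.11, was -0.25 on log2(TPM + 0.1) and ranged from -0.42 (without HRP2-KO replicate 44) to 0.42 (without WT replicate 12). Of the 14 Hox genes chosen for full statistics, 3 changed sign when 1 library was left out: Hoxd10 ranged from -6.64 to 0.20, Hoxb6 from -0.52 to 1.99 and Hoxc6 from -0.93 to 0.82. Hoxb8 passed without HRP2-KO replicate 7. The causes were not tested. The 95% intervals of Hoxc10 (-0.58 to 1.39) and Hoxd10 (-7.55 to 2.09) give the range of differences that 3 libraries a group leave possible. The 8 untested Hox genes had too few libraries with enough counts to pass the filter. Where a library had no count, a level of up to 3 counts remains possible, and levels from a few counts are imprecise.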
